A study of Mus musculus with 35 samples.

Results

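The cytokine genes examined here, which dendritic cells can transcribe when activated, were followed on expression arrays of type 1 conventional dendritic cells (cDC1) sorted from mouse spleen. They were Il12a, Il12b, Il15, Il6, Il10, Il27, Ebi3, Il1b, Tnf and Ifnb1, 10 of the 19938 named genes on the array, and they were chosen by name. Each was represented by 1 transcript cluster, the group of probes that the array summarises into 1 value. There were 35 arrays in 8 groups. Set 1 compared 4 arrays of homozygous MyclGFP/GFP cells, called Mycl KO here, with 5 arrays of heterozygous MyclGFP/+ cells at steady state. Set 2 compared 5 Mycl KO arrays with 5 wild-type (WT) arrays at steady state. Set 3 compared 5 Mycl KO arrays with 5 WT arrays taken 5 h after an intraperitoneal injection of 100 µg poly IC, a synthetic double-stranded RNA. The Mxd1 set compared 3 arrays labelled Mxd1 KO with 3 WT arrays, taken 18 h after the same dose of poly IC. The sources used here give neither the age nor the sex of the mice. Replicates are labelled biological, but whether each came from a separate mouse is left unsaid, so the p-values measure the spread between these samples only.

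cDC1 cross-present antigen to CD8 T cells and sense double-stranded RNA through Tlr3, an endosomal receptor. Interleukin 12 is a heterodimer of the Il12a (p35) and Il12b (p40) products and drives interferon gamma production by T and NK cells. Interleukin 27 pairs the Il27 (p28) product with the Ebi3 product. Interleukin 15, displayed on its receptor alpha chain, sustains NK cells and memory CD8 T cells. Tnf and Il1b encode inflammatory cytokines, interleukin 1 beta being made as a precursor that caspase 1 cleaves. Il6 encodes an inflammatory cytokine that signals through Il6st (gp130), Il10 encodes an anti-inflammatory cytokine, and Ifnb1 encodes interferon beta, an early type I interferon. Mycl encodes L-Myc, a transcription factor that pairs with Max at E-box DNA sites, and Mxd1 encodes a repressor that also pairs with Max.

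The start sites of 7 of the 10 genes were found in the RefSeq promoter table (GRCm38.p6). The 250 bases before the start are printed, 5′ to 3′ on the gene's strand, for the members whose values the comparisons below turn on most: Ifnb1 (chr4:88522795-88523044, minus strand), Il6 (chr5:30012864-30013113, plus strand), Ebi3 (chr17:55952373-55952622, plus strand), Tnf (chr17:35202008-35202257, minus strand) and Il12b (chr11:44399813-44400062, plus strand). Capitals mark a match to the kappaB consensus, the site type bound by NF-kappaB proteins.
Ifnb1: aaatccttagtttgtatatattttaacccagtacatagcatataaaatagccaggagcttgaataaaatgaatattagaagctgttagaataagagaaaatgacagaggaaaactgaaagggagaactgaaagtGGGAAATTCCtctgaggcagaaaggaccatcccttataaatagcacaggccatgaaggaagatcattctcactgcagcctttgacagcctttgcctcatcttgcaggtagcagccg
Il6: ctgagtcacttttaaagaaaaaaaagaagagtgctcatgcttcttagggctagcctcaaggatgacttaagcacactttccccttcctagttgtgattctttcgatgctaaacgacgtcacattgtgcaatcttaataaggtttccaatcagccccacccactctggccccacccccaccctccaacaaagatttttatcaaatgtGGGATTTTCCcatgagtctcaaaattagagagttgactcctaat
Ebi3: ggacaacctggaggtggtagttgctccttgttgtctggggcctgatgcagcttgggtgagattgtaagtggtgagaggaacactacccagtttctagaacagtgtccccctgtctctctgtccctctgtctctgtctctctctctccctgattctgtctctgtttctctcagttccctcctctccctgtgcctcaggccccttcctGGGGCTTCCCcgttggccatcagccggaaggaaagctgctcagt
Tnf: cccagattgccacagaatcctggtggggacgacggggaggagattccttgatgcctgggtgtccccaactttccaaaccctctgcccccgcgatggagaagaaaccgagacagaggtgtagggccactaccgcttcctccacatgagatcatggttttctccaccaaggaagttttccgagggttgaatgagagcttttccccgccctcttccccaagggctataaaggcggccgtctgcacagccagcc
Il12b: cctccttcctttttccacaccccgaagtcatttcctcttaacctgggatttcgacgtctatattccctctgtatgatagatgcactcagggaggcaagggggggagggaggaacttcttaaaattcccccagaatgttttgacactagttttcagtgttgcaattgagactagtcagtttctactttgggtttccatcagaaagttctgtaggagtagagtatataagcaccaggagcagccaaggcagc
Both strands were searched. The kappaB consensus was found in 3 of the 7 members (Ifnb1, Il6 and Ebi3) and in 3.9% of 32851 RefSeq promoter windows of the same length. The Ifnb1 match lay 116 to 107 bases before the start, and the Il6 and Ebi3 matches each lay 44 to 35 bases before it. TATAAA was found in 3 members (Ifnb1, Tnf and Il1b) and in 12.4% of windows. TGANTCA, the AP-1 type of site, was found in Il6 among the members and in 6.75% of windows. CACGTG, the E-box letters that Myc and Mxd proteins bind with Max, was found in 0 of the 7 members and in 6.02% of windows. A pair of GAAA copies with any 2 bases (NN) between them, letters shared by many interferon-response elements, was also found in 0 of the 7 and in 2.98% of windows. GAAA copies at other spacings were not searched for. The printed Ifnb1 window holds such copies, as in gaaaactgaaa, shortly before its kappaB match. No kappaB match overlapped a match of another motif. These are matches of letters in these windows and were not tested as binding sites.

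Levels are RMA log2 values, on which 1 unit is a 2-fold change. The array medians differ by set, and the sets were taken as normalized apart, so levels of different sets are given side by side without a test, and each is also given as a percentile among the named clusters of its own array. A value shows a transcript's share against the rest of its array, and in these sorted bulk samples fewer expressing cells and less RNA per cell cannot be told apart. A gene was called near background when its group mean was at or below the 95th percentile of 1210 olfactory and vomeronasal receptor clusters, genes not used by these cells.

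Il1b, Il12b and Tnf ranked high in all 8 groups, while Il12a and Il10 stayed near background in all 8. Il6 was near background in the 4 steady-state groups and above it in the 4 poly IC groups. Ifnb1 was above background only in the 2 groups of set 3, and in both groups of the Mxd1 set, 18 h after poly IC, it was near background. Il15, Il27 and Ebi3 were above background in all 8 groups. In all, 26 of the 80 pairs of gene and group were near background.

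**Figure D1:**
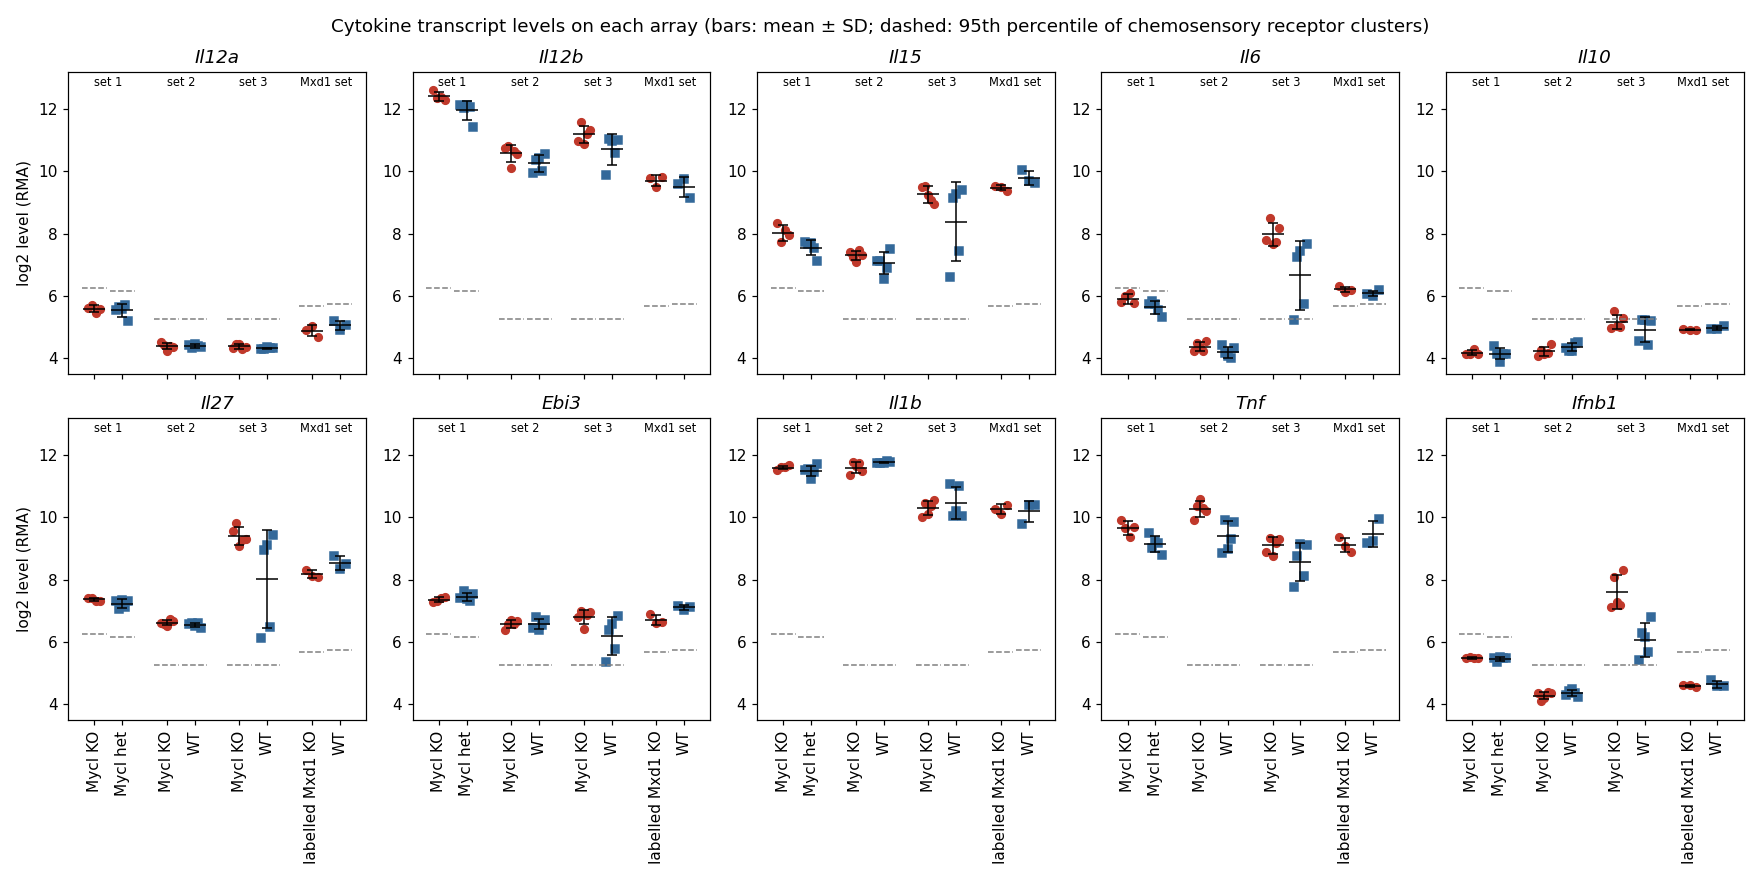
Each panel plots 1 gene, with the RMA log2 level on the vertical axis and the 8 groups in their 4 sets on the horizontal axis. Circles are KO arrays, squares are heterozygous or WT arrays, bars are mean ± SD, and the dashed lines mark the 95th percentile of the chemosensory receptor clusters. Il12a and Il10 have their group means at or below the dashed line in all 8 groups, and 2 WT arrays of set 3 lie far below the other 3 for Il15, Il27 and Il6.

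Il12b, the p40 subunit, had a mean percentile between 92.2 (WT, Mxd1 set) and 99.1 (Mycl KO, set 1). Il12a, the p35 subunit that it needs to form interleukin 12, lay between percentiles 21.6 and 26.6. Its set 3 levels were 4.32, 4.45, 4.45, 4.30 and 4.35 in Mycl KO cells, against 4.30, 4.28, 4.35, 4.32 and 4.31 in WT cells. Those arrays overlapped, and no set 3 value of the p35 transcript rose above the background level. Il1b lay between percentiles 95.6 and 99.2. Its group means were 11.61 and 11.50 in Mycl KO and heterozygous cells of set 1 and 11.61 and 11.78 in Mycl KO and WT cells of set 2, all at steady state. The means were 10.30 and 10.47 in Mycl KO and WT cells of set 3, and 10.27 and 10.19 in the labelled Mxd1 KO and WT cells. Tnf lay between percentiles 83.8 and 96.8.

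Il27, Il15 and Il6, of low or middle rank at steady state, had higher mean ranks in the poly IC groups. Ifnb1, of low rank at steady state, had a higher mean rank only in set 3. Il27 lay between percentiles 58.7 and 63.1 in the 4 steady-state groups. After poly IC it lay at percentile 92.9 in Mycl KO and 79.0 in WT cells at 5 h, and at 79.7 in labelled Mxd1 KO and 84.4 in WT cells at 18 h. The WT mean at 5 h joins unlike arrays: 57.5 and 62.6 in WT 1 and 4, against 90.6, 91.5 and 93.0 in WT 2, 3 and 5. The KO arrays lay at 91.0 to 94.7. Il15 lay between percentiles 63.2 and 72.8 at steady state. It lay at 92.2 in Mycl KO and 83.4 in WT cells of set 3, and at 92.0 in labelled Mxd1 KO and 93.9 in WT cells. In set 3 it was 64.3 and 75.8 in WT 1 and 4, 91.6, 92.5 and 92.8 in WT 2, 3 and 5, and 90.8 to 93.5 in KO arrays. Il6 lay at or below percentile 32.1 at steady state, at 82.4 in Mycl KO and 64.4 in WT cells of set 3, and at 50.8 in labelled Mxd1 KO and 48.2 in WT cells. In set 3 Il6 was at 41.0 and 50.6 in WT 1 and 4, 74.4, 77.1 and 79.2 in WT 2, 3 and 5, and 78.5 to 87.3 in KO arrays. Ifnb1 lay at 78.1 in Mycl KO and 56.5 in WT cells of set 3, and at or below percentile 23.9 in the other 6 groups. Il10, near background throughout, lay between percentiles 6.65 and 39.2. Ebi3, the partner of Il27, had group means between percentiles 58.4 and 68.7. In set 3 it was at 44.2 and 51.2 in WT 1 and 4, 62.2, 65.7 and 68.7 in WT 2, 3 and 5, and 62.8 to 71.5 in KO arrays. Neighbours in this order whose arrays overlap, such as Il12b and Il1b in most groups, cannot be ranked against each other, since probes of different genes differ in response.

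**Figure D2:**
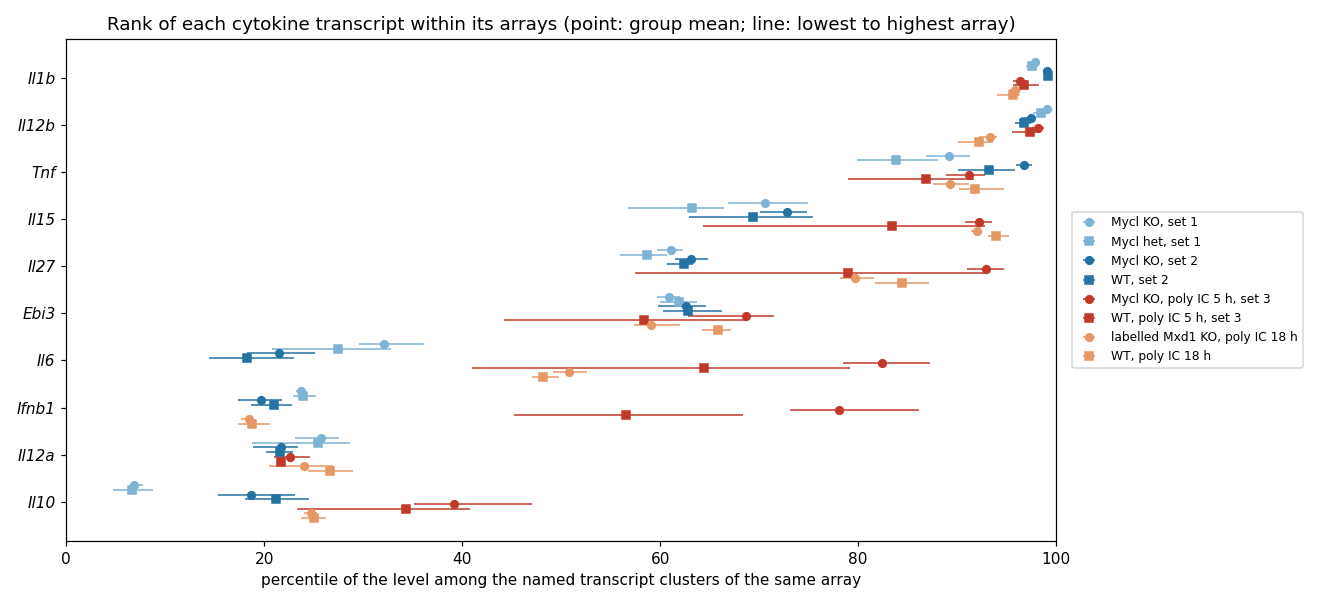
The horizontal axis is the percentile of each cytokine's level among the named clusters of the same array, and genes run down the page. Points are group means, circles for KO and squares for heterozygous or WT groups, and lines span the lowest to the highest array. Il1b, Il12b and Tnf lie on the right in all groups, Il12a and Il10 on the left, and Ifnb1 and Il6 move right in set 3.

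Before the comparisons, the libraries were set against their labels. Mycl was 6.78 to 7.11 in the KO and 9.65 to 9.93 in the heterozygous arrays of set 1, and 5.51 to 5.80 in the KO and 9.55 to 9.79 in the WT arrays of set 2. In set 3 the library labelled Mycl KO replicate 3 had a Mycl level of 8.87, against 5.52 to 6.14 in the other 4 KO libraries and 9.03 to 9.81 in WT libraries. Mxd1 was 10.64, 10.49 and 10.41 in the libraries labelled Mxd1 KO, against 11.03, 10.81 and 10.63 in WT, so its level does not separate those groups, and where on the gene the probes lie relative to the mutation is not stated in the labels. WT libraries 1 and 4 of set 3 stood apart from the rest of their set. The mean level of 11 interferon-response genes was 7.32 and 8.49 in them, 10.66 to 10.96 in the other 3 WT libraries and 10.72 to 11.18 in the 5 KO libraries; at steady state in set 2 it was 6.45 to 6.79 in KO and 6.39 to 6.59 in WT arrays. All 10 markers of cDC1 were above background in all 8 groups. No 2 arrays held identical values.

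At steady state the cytokine transcript that differed most clearly was Tnf, which was higher in Mycl KO cDC1. In set 2 Tnf had levels of 9.91, 10.37, 10.60, 10.30 and 10.21 in Mycl KO cells, against 8.86, 9.93, 8.98, 9.32 and 9.86 in WT cells. The groups overlapped by the lowest KO and the highest WT array. The means were 10.28 ± 0.25 in KO and 9.39 ± 0.49 in WT cells (SD, n = 5 each), a log2 difference of 0.89 ± 0.18 (SE), or 1.85-fold (limma, adjusted p = 0.0124). It kept its call when any 1 array was left out, with adjusted p-values of 0.00593 to 0.0346. Of the 6 members tested in set 2 it was the only one that passed. Among all 14012 genes tested, 3.78% were called higher and 2.36% lower in Mycl KO cells, so 1 of 6 members stands against a sizeable background.

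In set 1, against heterozygous cells, Tnf had levels of 9.93, 9.65, 9.38 and 9.70 in Mycl KO cells and 9.50, 9.01, 9.24, 9.17 and 8.78 in heterozygous cells. Only the lowest KO array lay below the highest heterozygous one. The log2 difference was 0.52 ± 0.14 and did not pass (adjusted p = 0.184); its 95% interval was 0.22 to 0.83. None of the 6 members tested in set 1 passed, where 0% of 14023 genes were called higher and 0.0214% lower, although 1991 genes had an unadjusted p under 0.05. The Tnf difference of set 1 minus that of set 2 was -0.36 ± 0.26 and did not pass (adjusted p = 0.504). No member passed the test of set 1 against set 2, in which 0.253% of 14639 genes were called higher and 0.758% lower (37 and 111 genes, or 45 and 61 after quantile normalization over all arrays).

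Il12b was also higher on average in Mycl KO cells of both sets. It had levels of 12.62, 12.37, 12.39 and 12.30 in Mycl KO cells, against 12.12, 12.02, 12.14, 12.08 and 11.44 in heterozygous cells of set 1. These groups did not overlap, and how many of all genes tested in set 1 did not overlap was not counted. The log2 difference was 0.46 ± 0.13 (adjusted p = 0.216), rank 371 by p among the genes tested. In set 2 the levels were 10.76, 10.82, 10.12, 10.65 and 10.54 in Mycl KO cells, against 9.94, 10.38, 10.44, 10.01 and 10.56 in WT cells. The groups overlapped, and the difference was 0.32 ± 0.14 (adjusted p = 0.193). Without KO replicate 3, the lowest of its group, the set 2 difference was 0.43 and passed (adjusted p = 0.0448).

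Il15 had levels of 8.34, 7.73, 8.12 and 7.95 in Mycl KO cells, against 7.73, 7.66, 7.70, 7.54 and 7.12 in heterozygous cells of set 1. The lowest KO array lay just above the highest heterozygous one. The difference was 0.48 ± 0.14 (adjusted p = 0.214), rank 351 by p among the genes tested. In set 2 Il15 had levels of 7.40, 7.25, 7.10, 7.47 and 7.33 in Mycl KO cells, against 7.13, 7.13, 6.56, 6.89 and 7.51 in WT cells. The highest array of the set was a WT one, and the difference was 0.26 ± 0.13 (adjusted p = 0.268).

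With both steady-state sets in 1 fit, 3 of the 6 members tested were higher in Mycl KO cells. Among all 14639 genes in that fit, 2.01% were called higher and 2.43% lower (294 and 355 genes); after quantile normalization over all arrays the split was 464 higher and 316 lower. Tnf rose by 0.72 ± 0.13 (1.64-fold, adjusted p = 0.00283), and this call held in all 19 fits that left out 1 array. Il12b rose by 0.38 ± 0.10 (1.3-fold, adjusted p = 0.033) and Il15 by 0.37 ± 0.10 (1.29-fold, adjusted p = 0.0435). Both calls were lost with all 8 groups in 1 fit (adjusted p = 0.201 for Il12b and 0.581 for Il15), that of Il15 also with no level filter (adjusted p = 0.0545). The Il12b call was lost without any 1 of 7 arrays (KO 1 or 3 of set 1, KO 1, 2 or 4 of set 2, WT 1 or 4 of set 2), with a highest adjusted p of 0.0739. The Il15 call was lost in 15 of 19 such fits, and held without KO 2 or heterozygous 1 of set 1 and without KO 3 or WT 5 of set 2; its adjusted p-values were 0.00961 to 0.0872 over all 19.

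Il27, Ebi3 and Il1b gave small differences. In the fit of both sets the log2 difference was 0.10 ± 0.04 for Il27 (adjusted p = 0.216), -0.04 ± 0.06 for Ebi3 (adjusted p = 0.77) and -0.04 ± 0.06 for Il1b (adjusted p = 0.799). The 95% intervals were 0.01 to 0.19 for Il27, -0.16 to 0.08 for Ebi3 and -0.17 to 0.09 for Il1b. Il1b had levels of 11.37, 11.77, 11.67, 11.74 and 11.48 in Mycl KO cells of set 2, against 11.75, 11.76, 11.77, 11.80 and 11.79 in WT cells, whose 5 arrays lay close together (SD 0.02). Il12a, Il6, Il10 and Ifnb1 lay below the level filter in both sets and were not tested. The median log2 difference of the 6 members tested was 0.30 in set 1 and 0.17 in set 2, against 0.00 and 0.01 over all genes tested.

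**Figure D3:**
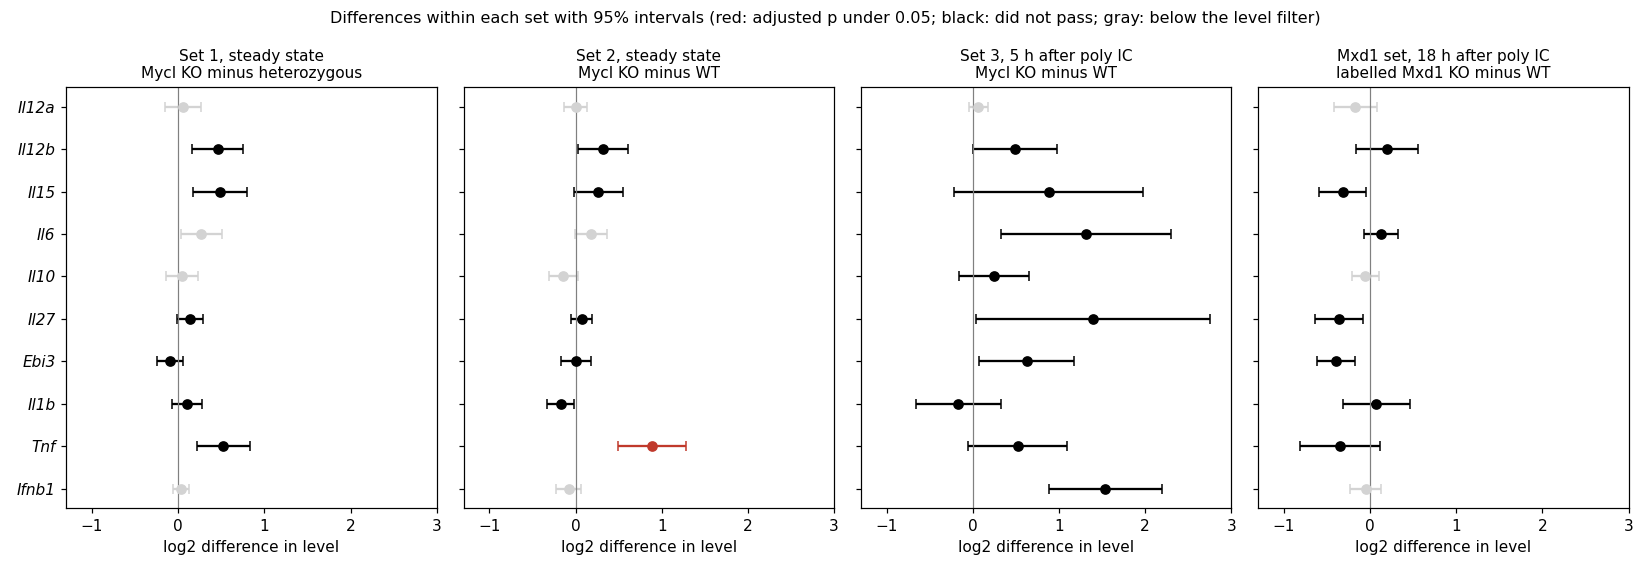
Each panel is 1 comparison, with the log2 difference in level (KO minus heterozygous or WT) on the horizontal axis and the genes down the page. Points are estimates from limma and bars are 95% intervals; red marks an adjusted p under 0.05, black a tested gene that did not pass, and gray a gene below the level filter. Tnf in set 2 is the only red point, and the set 3 intervals for Il15, Il6 and Il27 are the widest.

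Genes that act with these cytokines at steady state were taken from lists. The counts that follow stand beside the 3.78% of all genes called higher and 2.36% called lower in set 2. Of 15 receptor genes tested in set 2, 3 were higher in Mycl KO cells and none lower: Il6ra, the interleukin 6 receptor alpha chain (0.30 ± 0.06, adjusted p = 0.00933), Ifnar2, a chain of the type I interferon receptor (0.29 ± 0.06, adjusted p = 0.018), and Il12rb2, a chain of the interleukin 12 receptor (0.30 ± 0.07, adjusted p = 0.0235). Of 19 genes for transcription factors and signalling proteins that induce cytokines, 4 were higher and none lower. They were Irf7 (0.43 ± 0.09, adjusted p = 0.0101), Batf3 (0.27 ± 0.07, adjusted p = 0.0361), Relb (0.43 ± 0.12, adjusted p = 0.0432) and Irf8 (0.21 ± 0.06, adjusted p = 0.047); Batf3 and Irf8 are also the factors that define cDC1. Among 14 other cytokines, Tgfb1 was higher (0.29 ± 0.07, adjusted p = 0.0244) and Il18, a relative of interleukin 1, was lower (-0.36 ± 0.09, adjusted p = 0.029). Of 14 brakes on cytokine RNA and signalling, Dusp1, a phosphatase of MAP kinases, was higher (0.29 ± 0.08, adjusted p = 0.0424) and Zc3h12c was lower (-0.53 ± 0.13, adjusted p = 0.0258). None of the 7 genes for cytokine processing and release passed. The medians of these lists were between 0.05 and 0.18, against 0.01 over all genes. Of 10 interferon-response genes tested in set 2, 3 were higher and none lower, with a median of 0.04.

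In set 1 none of the genes in these lists passed. The lowest p-values there were those of Il1rap (-0.19 ± 0.05, adjusted p = 0.2) among receptors and Nfkbiz (0.26 ± 0.08, adjusted p = 0.216) among inducers. In the fit of both sets, where 2.01% of all genes were called higher and 2.43% lower, 4 of 14 brakes were higher and none lower: Dusp1 (0.32 ± 0.08, adjusted p = 0.0215), Tnip1 (0.23 ± 0.06, adjusted p = 0.0248), Nfkbia, the inhibitor of NF-kappaB that is itself induced by it (0.24 ± 0.06, adjusted p = 0.029), and Zc3h12a (Regnase-1), an RNase that degrades Il6 and Il12b mRNA (0.17 ± 0.04, adjusted p = 0.0337). Il18 was also lower in that fit (-0.34 ± 0.08, adjusted p = 0.0203). The brakes were not alone there: 3 of 15 receptors, 3 of 20 inducers and 1 of 10 interferon-response genes tested were higher and none lower.

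Marker genes moved in set 2 alongside Tnf. Of 10 cDC1 markers, 5 were higher and 1, Cd8a, was lower, against 3.78% and 2.36% of all genes. Of 6 tested cDC2 markers, Cd209a (1.37 ± 0.25, adjusted p = 0.00597) and Itgam (0.44 ± 0.08, adjusted p = 0.0072) were higher and Cd4 was lower (-0.53 ± 0.07, adjusted p = 0.00079). The mean level of 9 cDC2 markers was 5.23 to 5.70 in Mycl KO and 5.22 to 5.43 in WT arrays, and 3 of the 9 were near background in KO and 4 in WT cells. Of 10 tested monocyte and macrophage markers, Ccr2 was higher (0.55 ± 0.14, adjusted p = 0.0269) and Cd14 (-1.42 ± 0.10, adjusted p = 1.72e-06) and Spic (-0.58 ± 0.16, adjusted p = 0.0395) were lower, and the mean of 12 such markers was 5.94 to 6.13 in KO and 6.07 to 6.27 in WT arrays. Of 7 tested markers of plasmacytoid dendritic cells, Ccr9 and Tcf4 were higher and Pacsin1 was lower, with a list mean of 6.93 to 7.18 in KO and 6.89 to 6.97 in WT arrays. Of 4 tested B cell markers, Cd22 was higher (7.64 in KO and 6.94 in WT cells) and Ms4a1 was lower (5.16 in KO and 5.73 in WT cells), with a list mean of 5.11 to 5.26 in KO and 5.08 to 5.17 in WT arrays. Of 6 tested T and NK cell markers, Tbx21 was higher, with a list mean of 4.80 to 4.93 in KO and 4.70 to 4.89 in WT arrays. The part of these markers' cells in the Tnf difference was not tested.

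At 5 h after poly IC, Ifnb1 was the cytokine whose level separated all arrays labelled Mycl KO, the doubted replicate 3 included, from all WT arrays. Ifnb1 had levels of 7.13, 8.09, 7.30, 7.19 and 8.31 in Mycl KO cells, against 5.43, 6.28, 6.15, 5.67 and 6.80 in WT cells. Every KO array lay above every WT array, and how many of all genes tested were separated in this way was not counted. The means were 7.60 ± 0.55 in KO and 6.07 ± 0.54 in WT cells (SD, n = 5 each), a log2 difference of 1.54 ± 0.30, or 2.9-fold, with a 95% interval of 0.88 to 2.19. It had an unadjusted limma p of 0.000327, rank 28 among the genes tested, and an adjusted p of 0.153, so it did not pass over all genes. No gene passed in set 3: 0% of 14033 were called higher and 0% lower, with 1992 at an unadjusted p under 0.05.

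The WT libraries 1 and 4 that stood apart had the lowest Ifnb1 levels of the set, and without them the log2 difference was 1.19 ± 0.25 (2.29-fold, adjusted p = 0.0944). In that fit 0.0635% of 14174 genes were called higher and 0.00706% lower, and none of the 9 members tested passed. When KO library 3 was also left out, the Ifnb1 difference was 1.27 ± 0.27 (adjusted p = 0.0738). Ifnb1 in the doubted KO library, at 7.30, lay within the range of the other KO libraries. Both reduced fits were added after seeing the data. Plasmacytoid dendritic cells, which make much type I interferon, have markers on the array of which 7 were measured and none was near background in set 3. Their mean level was 7.26 to 7.41 in Mycl KO and 6.75 to 7.29 in WT arrays, none of the 7 passed, and their part in the Ifnb1 difference was not tested.

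For the other members the set 3 differences depended on WT libraries 1 and 4. Il27 had levels of 9.55, 9.81, 9.09, 9.27 and 9.32 in Mycl KO cells, against 6.14, 8.96, 9.10, 6.47 and 9.43 in WT cells. WT libraries 3 and 5 lay within the range of the KO arrays and WT 2 just below it, while libraries 1 and 4 lay more than 2 log2 units below the other 3. The difference was 1.39 ± 0.62 with all libraries (adjusted p = 0.348) and 0.25 ± 0.15 without those 2 (adjusted p = 0.668). Il15 had levels of 9.51, 9.54, 9.24, 9.08 and 8.95 in Mycl KO cells, against 6.62, 9.15, 9.29, 7.45 and 9.41 in WT cells. Its difference was 0.88 ± 0.50 with all libraries (adjusted p = 0.404) and -0.02 ± 0.13 without them (adjusted p = 0.98).

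Il6 had levels of 7.80, 8.50, 7.66, 7.72 and 8.20 in Mycl KO cells, against 5.21, 7.26, 7.43, 5.73 and 7.67 in WT cells. The highest WT array lay just above the lowest KO one. The difference was 1.32 ± 0.45 with all libraries (2.49-fold, adjusted p = 0.292) and 0.52 ± 0.17 without WT 1 and 4 (1.44-fold, adjusted p = 0.322). Ebi3 had levels of 6.80, 7.01, 6.43, 6.86 and 6.95 in Mycl KO cells, against 5.37, 6.38, 6.59, 5.76 and 6.83 in WT cells. Its groups overlapped, and the difference was 0.62 ± 0.25 with all libraries (adjusted p = 0.317) and 0.21 ± 0.13 without those 2 (adjusted p = 0.674).

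Tnf and Il12b, the members called at steady state together with Il15, were both higher on average in Mycl KO cells of set 3 without passing. Tnf had levels of 8.90, 9.36, 8.75, 9.18 and 9.32 in Mycl KO cells, against 7.76, 8.75, 9.14, 8.12 and 9.12 in WT cells. The difference was 0.52 ± 0.26 with all libraries (adjusted p = 0.37) and 0.10 ± 0.14 without WT 1 and 4 (adjusted p = 0.898). Il12b had levels of 10.97, 11.59, 10.88, 11.21 and 11.32 in Mycl KO cells, against 9.89, 11.04, 10.98, 10.60 and 11.02 in WT cells. The difference was 0.49 ± 0.22 (adjusted p = 0.353), and 0.18 ± 0.13 without those 2 libraries (adjusted p = 0.756).

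Il1b ran the other way in libraries 1 and 4. It had levels of 10.02, 10.46, 10.10, 10.36 and 10.56 in Mycl KO cells, against 11.06, 10.03, 10.20, 11.00 and 10.04 in WT cells, so that those 2 libraries had the highest Il1b of the set. The difference was -0.17 ± 0.22 with all libraries (adjusted p = 0.726) and 0.21 ± 0.12 without them (adjusted p = 0.64). Il10, whose group means were near background, differed by 0.24 ± 0.18 with all libraries (adjusted p = 0.517) and by -0.05 ± 0.12 without them (adjusted p = 0.952). Il12a lay below the level filter and was not tested. The median difference of the 9 members tested was 0.62, against 0.00 over all genes, and 8 of 9 were above 0; without WT libraries 1 and 4 the median was 0.21, with 7 of 9 above 0.

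**Figure D4:**
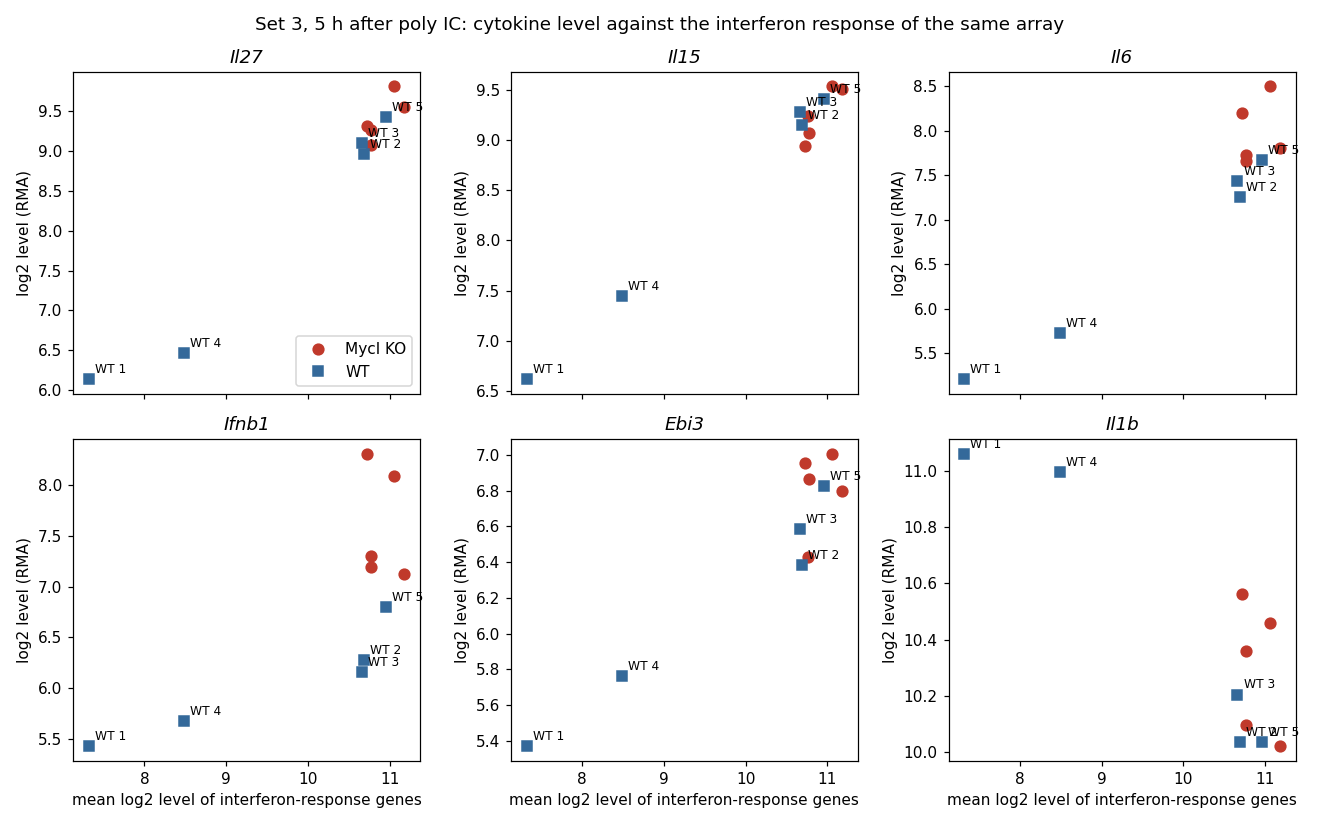
Each panel plots 1 cytokine in the 10 arrays of set 3, with its RMA log2 level on the vertical axis and the mean log2 level of 11 interferon-response genes of the same array on the horizontal axis. Circles are Mycl KO and squares are WT arrays, numbered by replicate. WT 1 and WT 4 lie at 7.32 and 8.49 on the horizontal axis with low Il27, Il15, Il6 and Ebi3 and high Il1b, and the 5 KO arrays lie above the WT arrays for Ifnb1.

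In the lists for set 3, the lowest p among the other cytokines was that of Ifna2, another type I interferon. It differed by 1.52 ± 0.29 (adjusted p = 0.153) and Ifna4 by 1.08 ± 0.26 (adjusted p = 0.229); the interferon alpha genes are near-identical copies, so their probes may not separate them. None of the 18 other cytokines, 15 receptors, 20 inducers, 13 brakes or 7 release genes tested passed. Among receptors Il2rb, a chain of the interleukin 15 receptor, had 0.41 ± 0.12 (adjusted p = 0.285) and Il12rb2 had 1.05 ± 0.41 (adjusted p = 0.311). Atf3, a transcriptional repressor of Il6 and Il12b in macrophages, had 0.35 ± 0.09 (adjusted p = 0.229), and Socs3, an inhibitor of interleukin 6 signalling, had 0.45 ± 0.11 (adjusted p = 0.229). All 11 interferon-response genes tested were above 0, with a median of 1.23 and the lowest p at Usp18 (1.09 ± 0.49, adjusted p = 0.351), and their low mean in WT libraries 1 and 4 enters that median. The 10 cDC1 markers had a median of -0.19, and their mean level was 9.61 to 9.82 in KO and 9.71 to 10.36 in WT arrays; their part in these differences was not tested.

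Whether the Mycl KO difference of set 3 exceeded that of set 2 was tested as the difference of the within-set differences. No member passed with all libraries, where 0.0136% of 14665 genes were called higher and 0.00682% lower (2 genes and 1, or 7 and 1 after quantile normalization over all arrays). Ifnb1 was near background in both groups of set 2 and entered this fit through its set 3 levels, so its value compares the set 3 difference with one at the floor of the array. It was 1.61 ± 0.32 (adjusted p = 0.0669). Without WT libraries 1 and 4 of set 3, where 0.202% of 14839 genes were called higher and 0.0741% lower, it was 1.27 ± 0.26 (adjusted p = 0.0418). Of the 20 fits that left out 1 array, only 2 had an adjusted p under 0.05 for Ifnb1. They were without WT 5 of set 3 (1.80, adjusted p = 0.0222) and without KO 1 of set 3 (1.73, adjusted p = 0.0495). Over all 20 its adjusted p-values were 0.0222 to 0.167. Tnf gave -0.37 ± 0.35 (adjusted p = 0.662) and Il12b 0.17 ± 0.28 (adjusted p = 0.812).

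At 18 h after poly IC, no cytokine passed between the libraries labelled Mxd1 KO and WT. Of 14080 genes tested, 0.0284% were called higher and 0.0426% lower, and 2236 had an unadjusted limma p under 0.05. Ebi3, Il27 and Il15 did not overlap between the groups and were lower in the labelled KO libraries. How many of all genes did not overlap was not counted, so this is given as values only. Ebi3 had levels of 6.89, 6.61 and 6.64 in labelled Mxd1 KO cells, against 7.17, 7.03 and 7.13 in WT cells. The groups did not overlap, and the difference was -0.39 ± 0.10 (adjusted p = 0.176) with a 95% interval of -0.62 to -0.17. Il27, its partner subunit, had levels of 8.32, 8.13 and 8.08 in labelled Mxd1 KO cells, against 8.77, 8.34 and 8.50 in WT cells. The lowest WT array lay just above the highest labelled KO array, and the difference was -0.36 ± 0.12 (adjusted p = 0.24).

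Il15 had levels of 9.53, 9.50 and 9.38 in labelled Mxd1 KO cells, against 10.05, 9.70 and 9.62 in WT cells, a difference of -0.32 ± 0.12 (adjusted p = 0.261) without overlap. Il12b (0.20 ± 0.16, adjusted p = 0.566), Il6 (0.12 ± 0.09, adjusted p = 0.502) and Il1b (0.07 ± 0.17, adjusted p = 0.861) overlapped between the groups, as did Tnf (-0.35 ± 0.20, adjusted p = 0.439). Their 95% intervals were -0.16 to 0.56 for Il12b, -0.07 to 0.32 for Il6, -0.31 to 0.46 for Il1b and -0.81 to 0.12 for Tnf, and differences within those bounds could not be told from 0. Il12a, Il10 and Ifnb1 lay below the level filter. The median difference of the 7 members tested was -0.32, against 0.00 over all genes, and 4 of the 7 were below 0. The interferon-response mean was 9.39, 9.23 and 8.97 in labelled KO and 9.52, 9.35 and 9.24 in WT libraries, and its part in the lower values was not tested.

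No gene of the cytokine, receptor, release, inducer, brake and interferon-response lists passed in the Mxd1 set. Casp4, an inflammatory caspase that is induced by interferon, came nearest at -1.04 ± 0.16 (adjusted p = 0.0956). Nfkbie, an inhibitor of NF-kappaB, had -0.48 ± 0.09 (adjusted p = 0.124), and Irf4, a transcription factor, had -0.57 ± 0.10 (adjusted p = 0.122). Il1rn, the antagonist of the interleukin 1 receptor, had -0.48 ± 0.11 (adjusted p = 0.153). Of the 13 brakes tested 12 were below 0, with a median of -0.26, and of the 20 inducers 16 were below 0, with a median of -0.13. Over all genes tested 49.4% were above 0. The 10 cDC1 markers went the other way, with 8 above 0 and a median of 0.15. Among the markers of other cells, the monocyte and macrophage marker Spic was lower (-1.14 ± 0.11, adjusted p = 0.0197), and the mean of 12 such markers was 6.19 to 6.20 in labelled KO and 6.18 to 6.31 in WT arrays.

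The pattern of a member over all 35 arrays, taken as deviations from the mean of its set, was compared with those of other genes. These were the genes that passed the level filter in at least 1 comparison, and the measure was the root mean square (RMS) of the difference. Il27, Il15 and Il6 were the members above the RMS deviation of 0.5 set for this, at 0.67, 0.55 and 0.55. The genes most like Il27 were Slfn4 (RMS difference 0.13), Axl, a receptor tyrosine kinase (0.15), and Car13 (0.15). Those most like Il15 were Pcgf5 (0.13), Cflar, an inhibitor of caspase 8 (0.15), and Ccng2 (0.17). Those most like Il6 were Cd70, a TNF family ligand (0.21), the chemokine gene Cxcl11 (0.23) and Xaf1 (0.23). These deviations hold WT libraries 1 and 4 of set 3, where all 3 cytokines were lowest in that set.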

How the data were processed

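Expression of 10 cytokine genes was analysed in 35 arrays of sorted splenic cDC1. The deposited table holds log2 values of 35556 transcript clusters. The authors made them with RMA in the Affymetrix Expression Console, per the submitters' processing notes, which give no versions. Spike-ins that the design mentions were not used here, so total RNA per cell is not measured.

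The median array value lay between 5.47 and 6.57 and differed by set more than within it, and the 4 sets were taken as normalized apart. Tests were therefore made within a set, or between differences each taken within a set. Clusters were named through the platform annotation (21789 had 1 symbol); where a gene had several, the cluster with the highest mean was kept. A gene was tested where it exceeded the 30th percentile of the named clusters on enough arrays to fill the smaller group. Differences came from limma 3.58.1 (lmFit and eBayes, R 4.3.3), with p-values adjusted by Benjamini-Hochberg across every tested gene and called below 0.05. The scripts were tested on simulated data. Members were described in every comparison, and from each accompanying list the genes with the lowest p-values were named. The members and lists were chosen with earlier results of these data known. The number of arrays limits the precision. Alternatives covered the level filter, the choice of cluster, the normalization, array weights, trended variance, 1 fit of all groups, a replicate block and leaving out arrays. Promoter letters came from RefSeq (GRCm38.p6).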

Additional observations from a re-analysis of the deposited data

Results flagged for a closer look

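Among 60 pairs of gene and group with 4 or 5 arrays, 2 held an array far from the others; chance gives about 1 in 20 such pairs. Il12b in heterozygous cells of set 1 was 11.44 in replicate 5, with the nearest other array at 12.02. Il10 in Mycl KO cells of set 1 was 4.28 in replicate 3, with the other 3 arrays at 4.15, all near background.

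Il1b had estimates of opposite sign in the 2 steady-state sets, 0.11 ± 0.08 in set 1 and -0.17 ± 0.07 in set 2, and passed in neither (adjusted p = 0.55 and 0.195). It was flagged by a rule that every Mycl KO array of set 1 lay above the heterozygous mean and every Mycl KO array of set 2 below the WT mean. How many of all genes met this rule was not counted. The margin was small in places, with KO 2 of set 2 at 11.773 against a WT mean of 11.776. The difference of the 2 effects was 0.28 ± 0.11 on the log2 scale and did not pass (limma, adjusted p = 0.221).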

How the results depend on the processing

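Over 49 pairs of member and comparison, 1004 of 1079 values under other settings kept their direction and their side of the threshold, the Tnf calls of set 2 and of both steady-state sets among them, and the cause of the other values was not tested. With all 8 groups in 1 fit, which shares the spread between sets, the set 3 differences of Ifnb1 (adjusted p = 4.48e-06), Il6 (0.0034), Il27 (0.0138) and Ebi3 (0.0123) passed, and the steady-state calls of Il12b (0.201) and Il15 (0.581) were lost. With array weights Ifnb1 passed in set 3 (1.29, adjusted p = 0.0374), both of these settings made it pass in set 3 minus set 2 (0.00144 and 0.00743), and with no filter the steady-state call of Il15 was lost (0.0545). The fit of all groups lends set 3 the smaller spread of the other sets. For Il27 the SD was 1.58 in WT arrays of set 3 and 0.07 in WT arrays of set 2. The set 3 p-values of that fit therefore understate the spread of set 3. In set 3 alone without WT libraries 1 and 4, the differences of Il6, Il27 and Ebi3 were 0.52, 0.25 and 0.21 and did not pass. Ifnb1 was near background in set 2, so its set 3 minus set 2 values compare with a difference at the floor. The number of gene and group pairs near background was 23 at the 90th and 28 at the 99th percentile of the chemosensory clusters, against 26.

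Signs turned only where neither value passed. Ebi3 in set 2 was -0.0014 after quantile normalization over all arrays, -0.0065 with array weights and -0.039 to 0.060 without single arrays. Il1b in set 3 was 0.16 with array weights, 0.21 without WT libraries 1 and 4, and 0.26 without these and KO library 3. In the same 2 reduced fits Il15 was -0.021 and -0.016 and Il10 was -0.046 and -0.010. Il1b over both steady-state sets was 0.033 with array weights, and in the Mxd1 set it was -0.13 to 0.18 without single arrays. For set 3 minus set 2, Il1b was -0.066 after quantile normalization and -0.10 to 0.15 without single arrays. There Il12b was -0.10 with array weights, -0.14 and -0.060 in the reduced fits and -0.033 to 0.26 without single arrays, and Il15 was -0.088, -0.29 and -0.28 under the first 3 of these.

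Counts of genes passing moved more. Set 1, with 3, had 5 at the 50th percentile filter, 141 with array weights and 1 to 7 without single arrays. Set 2, with 861, had 358 in the fit of all groups and 408 to 1007 without single arrays. Set 3, with 0, had 1 with no filter, 72 with array weights, 1910 in the fit of all groups, 10 and 63 in the reduced fits and 0 to 2 without single arrays. The Mxd1 set, with 10, had 18 with array weights, 235 in the fit of all groups and 3 to 568 without single arrays, the highest without WT 2. Both steady-state sets, with 649, had 95 in the fit of all groups and 433 to 854 without single arrays. Set 1 minus set 2, with 148, had 584 with array weights, 15 in the fit of all groups and 31 to 317 without single arrays. Set 3 minus set 2, with 3, had 6 at the 50th percentile filter, 8 after quantile normalization, 74 with array weights, 11 with trended variance, 181 in the fit of all groups, 41 and 51 in the reduced fits and 1 to 30 without single arrays.

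In most pairs the same-numbered arrays did not deviate together (correlations of -0.398 to 0.348), so the numbers were not taken as pairs. With the replicate number as a block, 1 gene passed in set 1, 1 in set 3, 16 in the Mxd1 set and 30 in set 1 minus set 2. Under this block Ifnb1 passed in set 3 (adjusted p = 0.0272) and in set 3 minus set 2 (adjusted p = 0.000954), and Il12b over both steady-state sets did not (0.32, adjusted p = 0.069). Ifnb1 was near background in both groups of set 2, so its set 3 minus set 2 value compares with a difference at the floor. Most arrays correlated better with an array of another number than with that of their own.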

Other observations

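In set 3, the library labelled Mycl KO replicate 3 had the lowest Il6, Il27, Ebi3, Tnf and Il12b levels of the 5 KO libraries, at 7.66, 9.09, 6.43, 8.75 and 10.88. The next lowest Il6 level was close, at 7.72. The rest of the members in that library lay within the range of the other KO libraries. They were Il15 (9.24), Ifnb1 (7.30), Il1b (10.10), Il10 (5.02) and Il12a (4.45).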
